A study of Mus musculus with 4 samples.

Results

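Muscle membrane excitability genes are described here through 7 genes chosen by symbol: Chrna1, Chrnb1, Scn4a, Clcn1, Kcnj2, Kcnj11 and Atp1b1. All 7 had at least 1 transcription start site in the deposited table, with 46 of its 42207 sites and 7 of its 9838 genes. The sites came from whole transcriptome start site sequencing (WTSS-seq), in which a read begins at the 5′ end of a transcript or of a fragment of one. The libraries were made from gastrocnemius muscle of 2 adult AMPKα2 KO mice (AMPKα2-/-, C57BL/6), which carry a deletion in the part of Prkaa2 that codes for the catalytic domain in every cell, and of 2 wild-type controls (WT), 1 library per mouse. The comparison asked whether loss of this catalytic subunit of the energy-sensing kinase AMPK goes with another level or another start of these transcripts.

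A nerve impulse releases acetylcholine onto the muscle fibre, where it opens a receptor built in part of the subunits encoded by Chrna1 and Chrnb1. The resulting depolarization opens the sodium channel Nav1.4, encoded by Scn4a, and the action potential spreads over the fibre and into its transverse tubules. The chloride channel ClC-1 (Clcn1) and the inward rectifier potassium channel Kir2.1 (Kcnj2) hold and restore the resting potential, the ATP-sensitive channel pore Kir6.2 (Kcnj11) ties potassium conductance to the energy state of the cell, and the Na,K-ATPase, of which Atp1b1 encodes a β subunit, rebuilds the ion gradients.

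Kcnj11 had no promoter entry, and of the other members only Clcn1 had a listed site at its annotated start. The Clcn1 channel carries most of the resting chloride conductance of muscle. One site of 141 bases (chr6:42286660-42286800, GRCm38, plus strand) took 4713 of the 4789 Clcn1 reads, or 98.4%. The deposited position of this site was 23 bases after the start annotated by RefSeq (42286685). The annotated span of the gene begins farther upstream, at 42284851. The RefSeq promoter window (GRCm38.p6, chr6:42286435-42286734, plus strand, 250 bases before to 50 after the start) is shown because it holds the beginning of the site, with the bases that lie inside the site in capitals.
Clcn1: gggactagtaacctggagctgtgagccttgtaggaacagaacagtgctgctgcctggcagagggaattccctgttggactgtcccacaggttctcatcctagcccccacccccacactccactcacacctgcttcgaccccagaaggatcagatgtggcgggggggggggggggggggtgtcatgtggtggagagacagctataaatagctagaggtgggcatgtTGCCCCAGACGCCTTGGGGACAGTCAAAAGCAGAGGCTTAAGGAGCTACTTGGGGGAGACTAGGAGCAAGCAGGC

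Motifs were searched on both strands of these windows, namely the E-box CANNTG, its form CAGCTG, the TATA box as TATAAA, the MEF2 consensus and CATTCC, the core bound by TEAD factors. The Clcn1 window held a MEF2 match that begins 51 bases before the annotated start, with TATAAA inside it from 50 bases before the start. It also held E-boxes at 125, 101 and 69 bases before the start. MEF2 matches occurred in 3.19% of 32851 promoter windows, TATAAA in 13.6%, E-boxes in 72.3%, CAGCTG in 16.3% and CATTCC in 14.7%. Among the other members with a window, Chrna1 held CAGCTG at 92 and 44 bases before its start and another E-box at 73. Kcnj2 held CAGCTG at 206 bases and another E-box at 84 bases before its start. Chrnb1 held E-boxes at 119, 96 and 29 bases, the reverse of TATAAA at 144 bases and CATTCC at 21 bases before its start. The Scn4a and Atp1b1 windows held none of the motifs, which says only that these letters do not occur there.

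The share of Clcn1 reads at the start site was alike in all libraries. It was 97.8% of 1295 reads in KO replicate 1 (95% Wilson interval 96.9 to 98.5) and 99.3% of 1848 in KO replicate 2 (98.8 to 99.6). In WT it was 98.7% of 637 reads in replicate 1 (97.5 to 99.4) and 97.3% of 1009 in replicate 2 (96.1 to 98.2). The ranges of the groups overlapped. The other 5 Clcn1 sites lay in exons and held 11 to 26 reads each, and the 3 nearest the 3′ end overlapped Fam131b, the next annotated gene.

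Such a concentration was uncommon in these libraries. Reads near a start were placed by the deposited position of their site, on the strand of the gene, and the smallest listed site total was 10 reads. The total of a gene counted both strands. The 2828 genes compared had a total of at least 100 reads and a promoter entry. Of these, 42 (1.49%) had at least 90% of their reads placed within 100 bases of the annotated start. A higher share than that of Clcn1 was found in 28. Another 82.9% had no listed site of their strand in that window, and Scn4a, Atp1b1, Kcnj2 and Chrnb1 were among them. Chrna1, with 27 reads in all, had none there either, and Kcnj11 had no promoter entry and could not be placed in this way. Chrnb1 reached 100 reads only with those on the opposite strand, 107 of its 170.

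**Figure D1:**
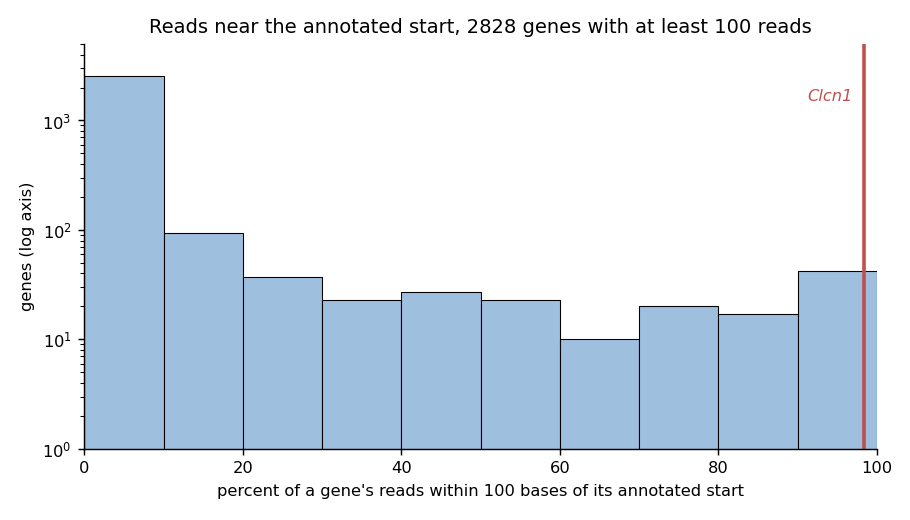
The horizontal axis of the histogram is the percent of a gene's reads at sites positioned within 100 bases of its annotated start. The vertical log axis is the number of genes, for 2828 genes with at least 100 reads over the 4 libraries. Most genes fall in the lowest bin, 42 genes fall in the highest, and the red line marks Clcn1 at 98.4%.

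Of the 46 member sites, 37 (80.4%) were contained in an annotated transcript (class code c), against 37.0% of all sites, and 7 (15.2%) were intronic (code i), against 49.8%. All sites include those without a gene symbol. Of the 37, Kcnj2 gave 17 and Scn4a 10, while the code held for 2 of 6 sites in Atp1b1, 1 of 3 in Chrnb1 and 0 of 2 in Kcnj11. Away from Clcn1, the reads of several members began near the 3′ end. Scn4a (chr11:106317545-106365559, minus strand) had 95.4% of its 735 reads in the last 10% of its span. All 10 of its sites were in exons, and none was nearer than 19122 bases to the annotated start. The start used for Scn4a, at 106349390, lay inside the printed span and not at its 5′ end. Chrna1 (chr2:73563281-73580338, minus strand) had a single exonic site, 16026 bases from the start, with all of its reads. This site (chr2:73564301-73564313) also lay within Gm30940, a long non-coding RNA gene annotated on the other strand.

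Kcnj2 (chr11:111066164-111076825, plus strand) had 18 sites, the most of any member, and 55.2% of its 762 reads fell in the last 10% of the gene. Its nearest site on the strand of the gene was 5518 bases from the start, while an intronic site on the opposite strand lay at 323 bases and held 55 reads. Atp1b1 (chr1:164437099-164458355, minus strand) differed from these, with 78.0% of its 486 reads at a site over an exon and intron (code e; chr1:164441590-164441666) and 34 of its reads in the last 10%. Its nearest site was 351 bases from the start. Both Kcnj11 sites (chr7:46097123-46100952) lay toward the 5′ end, at 9.74% and 17.7% of its span. Chrnb1 (chr11:69784036-69795966, minus strand) had 107 of its 170 reads at an intronic site on the opposite strand (chr11:69787771-69787773), so only 63 of its reads were sense.

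**Figure D2:**
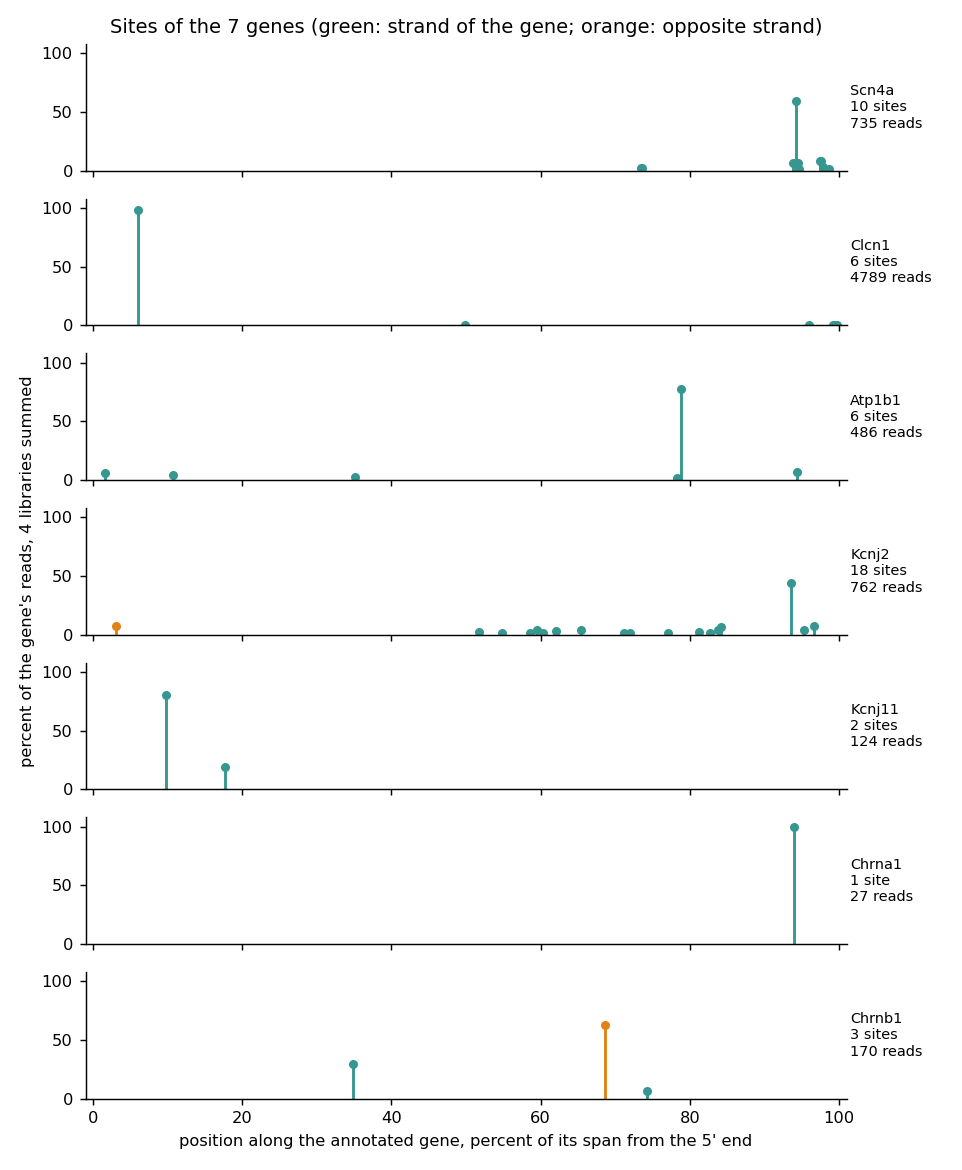
Each stem is a site, placed by its position along the annotated gene (percent of the span from the 5′ end, horizontal axis), with its share of the gene's reads summed over the 4 libraries (percent, vertical axis). Clcn1 has 1 stem near its 5′ end with 98.4% of reads, Scn4a, Kcnj2 and Chrna1 have their tallest stems past 90% of the span, and orange stems mark the sites of Kcnj2 and Chrnb1 on the opposite strand.

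The libraries held 2900279 and 2303294 reads in KO against 1300069 and 1568945 in WT, of which 818059 to 1835732 lay outside mitochondrial and ribosomal RNA. Members held 2149 and 2536 reads in KO against 939 and 1469 in WT, most of them from Clcn1. Prkaa2 itself gave no check of the labels, since its normalized count was 149 and 183 in KO against 153 and 186 in WT (a log2 difference of -0.03, SE 0.50). Defining markers of skeletal muscle fibres were present (11 of 12 genes had a site), with summed normalized counts of 29018 and 43191 in KO against 28803 and 49168 in WT. In whole muscle, fewer cells of a type and less RNA per cell cannot be told apart.

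No member was called different between KO and WT. Of 7 members, 6 passed the filter on low counts (a mean normalized count above 16.5) and 0 had a DESeq2 adjusted p-value under 0.1, with 0 at an unadjusted p under 0.05 and 0 called by edgeR. Over all genes, 125 of 4688 tested (2.67%) were called, 80 higher and 45 lower in KO, or 64 and 9 without WT replicate 1 and 41 and 36 without WT replicate 2. The median log2 fold change, KO minus WT, was 0.16 over the 6 tested members and 0.01 over all genes tested. That of the members was -0.069 without KO replicate 2 and -0.0048 with sites on the strand of the gene alone. The smallest absolute log2 fold change of any called gene with a mean normalized count of at least 50 was 1.27, and the 4 tested members at that level ranged from -0.25 to 0.45.

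Among the receptor subunits, Chrnb1 had normalized counts of 39.1 and 43.7 in KO (mean 41.4 ± 3.25, SD, n = 2) against 40.7 and 33.6 in WT (37.1 ± 4.98). The ranges overlapped, and the log2 fold change was 0.16 (SE 0.76, 95% interval -1.33 to 1.64, DESeq2 adjusted p = 0.992). On the strand of the gene alone, Chrnb1 had 15 and 22 reads in KO against 13 and 13 in WT, where the log2 fold change was -0.28.

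Chrna1, the acetylcholine-binding subunit, had 14 and 11 reads in KO against 0 and 2 in WT, the lowest total of any member. Both KO libraries were above both WT libraries. The counts gave a KO to WT ratio of 6.81 with a 95% interval of 1.70 to 59.3 that covers counting error only. The only site of the gene reached the smallest listed total of 10 reads through KO alone, so this ratio is no test of a difference. The spread between libraries gave a log2 fold change of 2.83 (SE 2.10, 95% interval -1.29 to 6.95), or 1.87 without WT replicate 1 and 5.11 without WT replicate 2, and the gene lay under the filter and had no adjusted p-value. Summed markers of denervated or immature fibres (6 of 8 genes with a site) were 1780 and 2640 in KO against 2025 and 2999 in WT, with 0 of 3 tested genes called.

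Scn4a, the voltage-gated sodium channel of the fibre, had normalized counts of 172 and 146 in KO (159 ± 18.2) against 175 and 202 in WT (189 ± 18.7). Both KO libraries were below both WT libraries, by a narrow gap. The log2 fold change was -0.25 (SE 0.49, 95% interval -1.22 to 0.72, DESeq2 adjusted p = 0.983), so the difference was within the error of the fit. Of the 6 tested members, Scn4a alone had KO below WT in every library and Atp1b1 alone had KO above WT, while 19.4% of all genes tested lay wholly below and 22.0% wholly above.

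Clcn1 had normalized counts of 791 and 1615 in KO (1203 ± 583) against 893 and 1257 in WT (1075 ± 257). The lowest and the highest value of the 4 were both in KO. The log2 fold change was 0.16 (SE 0.47, 95% interval -0.76 to 1.08, DESeq2 adjusted p = 0.992). At its start site alone, with 1267 and 1835 reads in KO against 629 and 982 in WT, it was 0.28 (SE 0.59, DESeq2 adjusted p = 1.00 over sites).

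Kcnj2, which sets the resting potential, had normalized counts of 146 and 258 in KO (202 ± 79.1) against 107 and 189 in WT (148 ± 58.5). The ranges overlapped, and the log2 fold change was 0.45 (SE 0.55, 95% interval -0.64 to 1.53, DESeq2 adjusted p = 0.941). Kcnj11, the pore of the ATP-sensitive channel, had 25.04 and 30.6 in KO (27.8 ± 3.92) against 28.0 and 34.9 in WT (31.5 ± 4.83). Here too the groups overlapped, with a log2 fold change of -0.18 (SE 0.84, 95% interval -1.84 to 1.47, DESeq2 adjusted p = 0.992).

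Atp1b1, the pump subunit, had normalized counts of 131 and 114 in KO (122 ± 12.5) against 72.9 and 111 in WT (91.9 ± 26.8). Both KO libraries were above both WT libraries, but KO replicate 2 and WT replicate 2 were close. The log2 fold change was 0.41 (SE 0.57, 95% interval -0.70 to 1.52, DESeq2 adjusted p = 0.951), or 0.15 without WT replicate 1 and 0.72 without WT replicate 2.

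**Figure D3:**
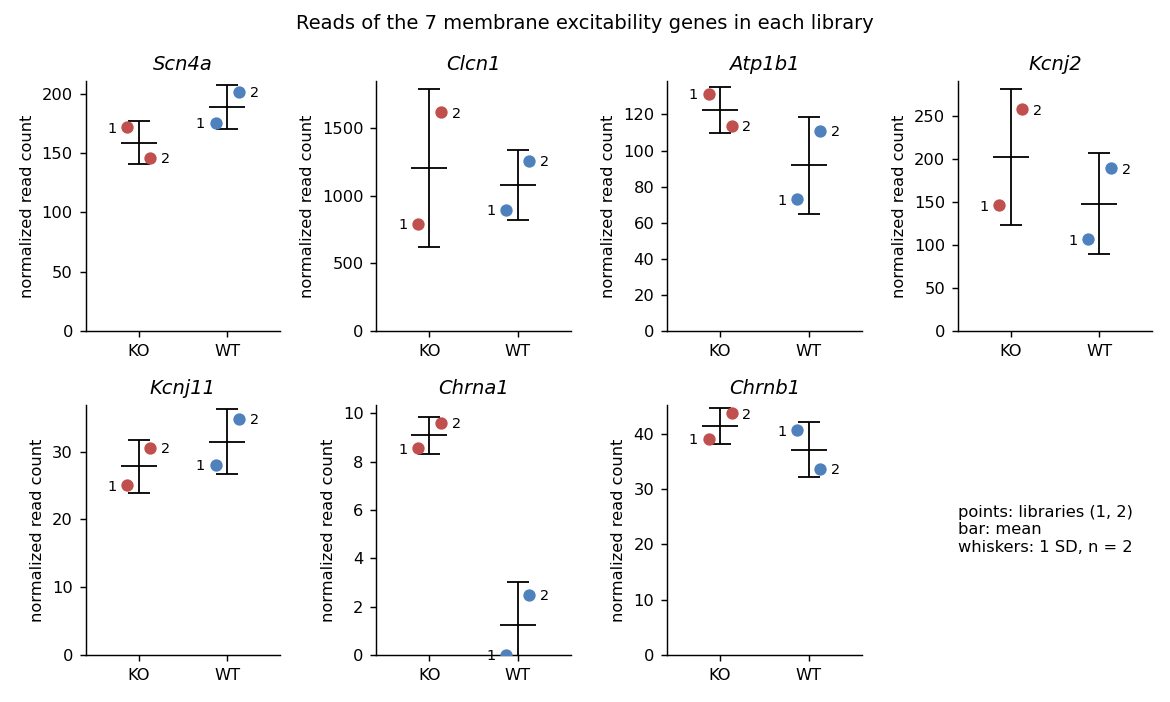
Normalized read counts (vertical axes, each from 0) of the 7 genes in KO (red) and WT (blue), with a point per library labelled by its replicate number, a bar at the mean and whiskers of 1 SD (n = 2). KO and WT overlap in Clcn1, Kcnj2, Kcnj11 and Chrnb1, and are apart in Scn4a (KO lower) and in Atp1b1 and Chrna1 (KO higher).

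At the level of single sites, 14 of the 46 member sites passed the filter (a mean normalized count above 8.76) and 0 were called by DESeq2 or by edgeR. Over all sites, 357 of 11112 (3.21%) were called, 259 higher and 98 lower in KO, or 170 higher and 111 lower when counts were scaled by the reads outside mitochondrial and ribosomal RNA. Among the most-read site of each member, that of Kcnj2 (chr11:111076135-111076139, exonic) stood farthest from 0 among the tested sites, with 152 and 113 reads in KO against 27 and 44 in WT. Its normalized counts of 99.8 and 97.5 in KO were above 36.6 and 50.8 in WT. The log2 fold change was 1.17 (SE 0.75, adjusted p = 0.763 by DESeq2). This site held 63.6% and 38.3% of the Kcnj2 reads in KO (95% Wilson intervals 57.3 to 69.4 and 32.9 to 44.0) and 35.5% and 28.9% in WT (25.7 to 46.7 and 22.3 to 36.6).

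The most-read site of Scn4a (chr11:106320281-106320451) had 197 and 80 reads in KO against 66 and 96 in WT, and its normalized counts overlapped between the groups. That of Atp1b1 had 177 and 94 reads in KO against 35 and 73 in WT, and that of Kcnj11 (chr7:46100486-46100629) had 35 and 28 in KO against 14 and 23 in WT. The opposite-strand site of Chrnb1 had 49 and 28 reads in KO against 16 and 14 in WT. The KO libraries were deeper, and normalized counts overlapped at the Atp1b1 site (116 and 81.1 in KO, 47.5 and 84.3 in WT). They overlapped at the Kcnj11 site too (23.0 and 24.2 in KO, 19.0 and 26.6 in WT). At the Chrnb1 site they were 32.2 and 24.2 in KO against 21.7 and 16.2 in WT. Each of these 4 sites had a DESeq2 adjusted p of 1.00.

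A pair of low-count exonic sites of Scn4a held reads almost wholly in 1 group, in opposite directions. One near the 3′ end (chr11:106318586-106318600) had 12 reads in each KO library and 0 in each WT library, at least 2.42-fold higher in KO when each WT library was set at a floor of 3 counts. Another farther upstream (chr11:106330157-106330209), which was singled out after its values were seen, had 0 and 1 reads in KO against 10 and 8 in WT, a WT to KO ratio of 30.1 (95% interval of counting error 4.76 to 1255). Their unadjusted p-values by DESeq2 were 0.045 and 0.038, and neither passed the filter for an adjusted p-value. They were the only 2 of 46 member sites with an unadjusted p under 0.05 (4.35%), against 4.05% of all sites. Each reached the smallest listed total of 10 reads only through the group where it was high, so the fold and the ratio are no test of a difference.

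Start site usage was tested in the 4 members with at least 2 sites of sufficient reads, namely Atp1b1 (2 sites), Chrnb1 (2 sites), Kcnj2 (5 sites) and Scn4a (5 sites). The share of reads held by a site did not differ beyond the error between KO and WT in any of them (diffSpliceDGE of edgeR, Simes adjusted p = 1.00 in each). The unadjusted values ran from 0.726 for Chrnb1 to 0.980 for Atp1b1. The Chrnb1 sites were its opposite-strand site and an intronic site on the strand of the gene. For Chrnb1 the test therefore did not compare starts on the strand of the gene with each other. The Kcnj2 sites included its opposite-strand site. Over all genes, 29 of 2145 (1.35%) were called.

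The partners of these proteins were followed in 59 genes of membrane excitability that are reported here, part of a longer list, of which 31 had a site and 20 were tested. Among these 20, 0 were called by DESeq2 or by edgeR, and 3 (15%), Scn4b, Kcnma1 and Kcnq5, had an unadjusted p under 0.05, against 9.77% of all genes tested. The median log2 fold change was 0.28, against 0.01 over all genes tested. Both KO libraries lay above both WT libraries in 8 of the 20 (40%, against 22.0% of all genes tested). They lay below both WT libraries in 2 (10%, against 19.4%), Clic4 and Atp1b3. The other subunits of the acetylcholine receptor, Chrnd, Chrne and Chrng, had no site at the smallest listed total of 10 reads over the 4 libraries.

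Membrane anchors tie channels to the cytoskeleton. Of the 5 reported here, all had a site, 4 were tested and 0 were called. Ank3 (ankyrin-G), with the most reads, had normalized counts of 1230 and 1853 in KO against 1165 and 811 in WT. Both KO libraries were above both WT libraries, and the difference was 0.64 on the log2 scale (SE 0.43, with an adjusted p of 0.751 in DESeq2).

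Of 5 further sodium channel subunits, 2 had a site. Scn4b, a β subunit that modulates channel gating, had normalized counts of 633 and 918 in KO against 407 and 308 in WT. The libraries of the groups were apart, at a log2 difference of 1.12 (SE 0.44), but the DESeq2 adjusted p was 0.245. Of 23 potassium channel genes, 12 had a site and 6 were tested. Kcnma1, which encodes the calcium-activated BK channel, had 303 and 401 in KO against 151 and 164 in WT (a log2 difference of 1.16, SE 0.47, with an adjusted p of 0.272 in DESeq2). Kcnq5, named after its values were seen, had 176 and 213 in KO against 98.2 and 54.8 in WT (1.35, SE 0.56, with 0.282 as the DESeq2 adjusted p). In all 3 the KO libraries were above the WT libraries without passing the test. Kcnma1 and Kcnq5 rested largely on intronic, antisense or intergenic sites. Without such sites, Kcnma1 had no adjusted p-value (log2 fold change 1.11) and Kcnq5 had no value, while Scn4b gave 1.30. Kcnj12, a relative of Kcnj2, had 6 and 4 reads in KO against 1 and 7 in WT, too few to test.

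Of 7 further Na,K-ATPase genes reported here, 4 had a site, 3 were tested and 0 were called. Atp1b2, another β subunit and the one with the most reads, had normalized counts of 66.6 and 71.7 in KO against 65.9 and 63.5 in WT. The KO libraries were above the WT libraries by little (a log2 difference of 0.09, SE 0.63, with an adjusted p of 0.992 in DESeq2). Of 6 chloride channel genes, 3 were tested and 0 called, and Ano5, with the most reads, had a log2 fold change of -0.07 (SE 0.59). The others tested, Clic4 and Clcn3, were named after their values were seen and went in opposite directions. Clic4 had 15.9 and 18.4 in KO against 64.5 and 38.6 in WT (-1.59, SE 0.82, with 0.515 as the DESeq2 adjusted p). Clcn3 had 125 and 46.3 in KO against 47.7 and 34.9 in WT (1.06, SE 0.72, with 0.756 as the DESeq2 adjusted p). Of 10 genes of synapse assembly, 2 were tested and 0 called, and Utrn (utrophin), with the most reads, had 0.07 (SE 0.46).

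**Figure D4:**
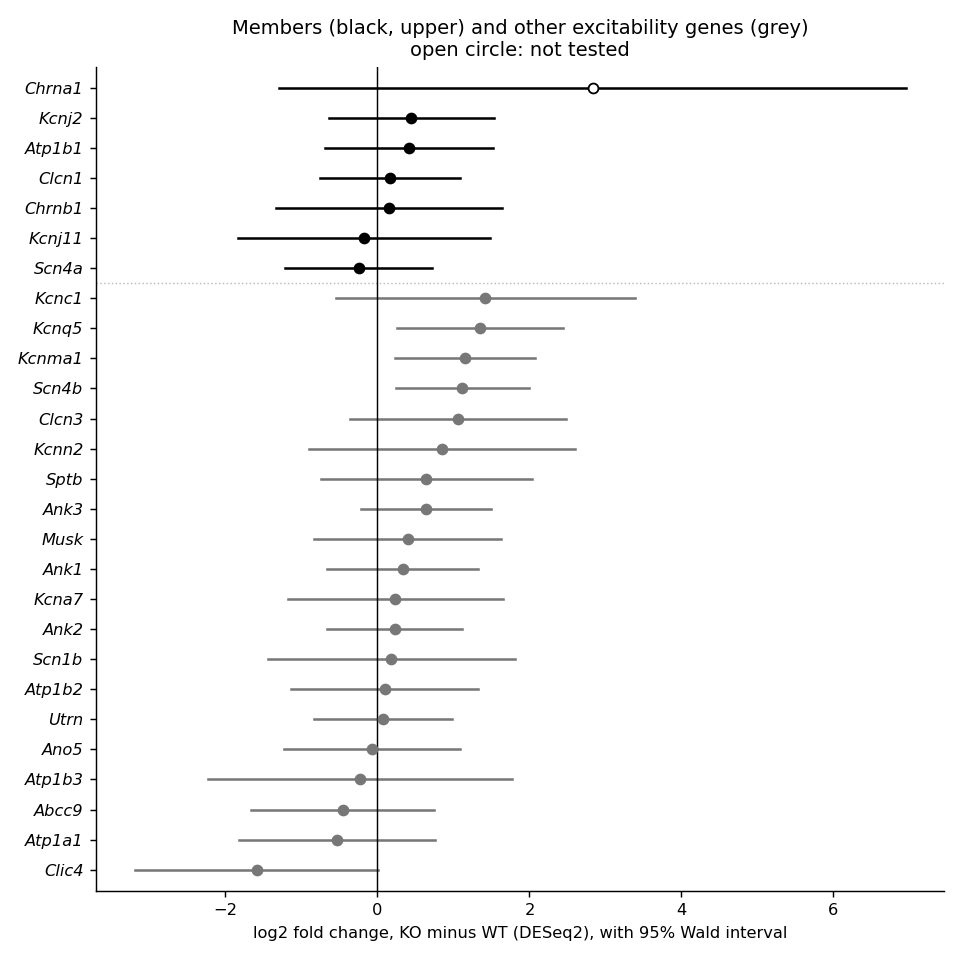
Log2 fold change, KO minus WT (horizontal axis), with its 95% Wald interval for the 7 members (black) and the 20 tested genes reported from the list (grey), ordered by value. The intervals of all 7 members include 0, and Chrna1 (open circle) was not tested.

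Markers of other cells were summed in the same way, and in each list 0 genes were called. Sums were higher in both KO libraries for endothelial cells (7 of 8 genes with a site, 303 and 324 in KO, 254 and 268 in WT) and red blood cells (2 of 5, 24.5 and 28.1 against 16.2 and 21.03). They were lower in both KO libraries for fibroblasts (8 of 8, 2573 and 2876 against 3726 and 3865) and macrophages (7 of 8, 268 and 294 against 418 and 551). They overlapped for slow fibres (7 of 8, 917 to 1182 in KO, 362 to 949 in WT), smooth muscle and pericytes (6 of 8, 208 to 336 and 324 to 471), Schwann cells (3 of 8, 20.2 to 44.6 and 13.7 to 86.9), adipocytes (5 of 8, 2943 to 5881 and 3262 to 5829) and satellite cells (2 of 4, 38.4 to 56.2 and 41.1 to 157). The part of these sums in the values of the list was not tested.

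Genes with the profile most like a member were found by the distance between log2 normalized counts, each centred on its mean over the 4 libraries, among genes with a mean of at least 50. For Clcn1, the member with most reads, they were Myh2, a fast myosin heavy chain (distance 0.13), Cmbl (0.16) and Ldb3, a Z-disc protein (0.19), of 2398 genes. Myh2 had normalized counts of 462 and 838 in KO against 505 and 709 in WT, low in replicate 1 and high in replicate 2 of each group, as Clcn1 was. For Chrna1, the member farthest from 0, they were Gm28783 (0.27), 2310014F06Rik (0.62) and Usp2 (0.69), of 2399 genes. Chrna1 had 14 and 11 reads in KO against 0 and 2 in WT and was listed through KO alone. Its nearest genes therefore only repeat that pattern and are no support for a difference. These distances rest on 4 libraries and describe the profiles only.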

How the data were processed

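WTSS-seq libraries of gastrocnemius muscle (2 KO, 2 WT) were compared. RNA was depleted of ribosomal RNA, reverse transcribed with template switching and amplified by PCR before Ion Torrent sequencing, with no molecular identifiers described, so intervals and floors cover counting error only. The authors deposited raw read counts per clustered site with a Cuffcompare class code, on GRCm38.p5 per the labels. Mapping and clustering settings were stated only for sister 3′ libraries, and no setting was stated for sites shared by overlapping genes. Counts were summed per symbol. Genes and sites were compared by the two-sided Wald test of DESeq2 1.42.0 (adjusted p under 0.1, as in the study), and by the quasi-likelihood test of edgeR 4.0.16; site usage was tested by diffSpliceDGE. Normalized counts are counts divided by DESeq2 size factors. Promoter windows, for 6 of 7 members, and gene spans came from RefSeq (GRCm38.p6), and coordinates count from 1.

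Members, gene lists and 11 marker lists were chosen with earlier results of these data known. Named were all members, their most-read sites, called sites, sites read in 1 group only (at least 10 reads in each library of it, at most 3 in the others), sites at the annotated start, called list genes, the most-read list gene of each role, and Chrnd, Chrne, Chrng and Kcnj12. Of the 61 list genes, 2 are not reported here, and list counts leave them out. Transcript lengths were not available here, so levels were not compared between genes. Replicates of a group differed by more than sampling noise (chi-square per degree of freedom 10.5 in KO, 6.46 in WT). Scripts were tested on simulated data.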

Additional observations from a re-analysis of the deposited data

How the results depend on the processing

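With 2 mice per group, the standard error was 0.47 for Clcn1 with 4789 reads and 0.49 for Scn4a with 735. Members called remained 0 under all 15 other settings for genes, 12 for sites and 8 for site usage. The median of the tested members, 0.16, was -0.0048 with sites on the strand of the gene alone. It was -0.069 to 0.28 with 1 library left out and 0.46 without intronic, antisense or intergenic sites. In that last setting Chrnb1 had no adjusted p-value. Clcn1 and Scn4a, which have no such site, moved there too, from 0.16 to 0.38 and from -0.25 to 0.0077.

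Over the 59 list genes reported, calls numbered 0 under the same 15 settings. The median log2 fold change of those tested, 0.28 over 20 genes, was 0.42 without intronic, antisense or intergenic sites and 0.17 to 0.52 with 1 library left out.

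Calls over all genes numbered 54 with edgeR, 110 (60 higher, 50 lower) when scaled by reads outside mitochondrial and ribosomal RNA, 64 without those sites and 56 to 77 with 1 library left out, against 125. Calls over all sites numbered 234 at a threshold of 0.05, 80 with edgeR (48 higher, 32 lower), 195 with the replicate block, 1 with edgeR and the replicate block, 175 without independent filtering, 281 (170 higher, 111 lower) when scaled by reads outside mitochondrial and ribosomal RNA, and 44 to 250 with 1 library left out. Scaling by reads outside mitochondrial and ribosomal RNA moved the median log2 fold change of all sites from 0.33 to 0.14. Calls of usage numbered 14 at 0.05, 71 by the gene-level F test, 12 with the replicate block and 5 to 26 with 1 library left out, against 29.

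The sign of several members' log2 fold changes, none of them called, turned. Without KO replicate 2, the value was -0.43 for Clcn1, -0.28 for its start site and -0.011 for Kcnj2. Without WT replicate 1 it was -0.06 for Clcn1, and without WT replicate 2 it was -0.0047 for Chrnb1. Sites on the strand of the gene alone gave -0.28 for Chrnb1. Without intronic, antisense or intergenic sites, it was 0.18 for Kcnj11 and 0.0077 for Scn4a. Scn4a has no such site, so its own counts were unchanged while the scaling and the fit were made anew. The most-read Scn4a site gave 0.0046 with TMM factors, 0.35 without KO replicate 2 and 0.09 without WT replicate 2. The most-read Kcnj11 site gave -0.026 with edgeR, -0.0011 with edgeR and the replicate block, -0.14 when scaled by reads outside mitochondrial and ribosomal RNA, -0.085 with at least 10 reads in 2 libraries, -0.0097 without KO replicate 2 and -0.17 without WT replicate 1. With 1 library left out in turn, the highest values were 0.60 for Clcn1, 0.71 for its start site, 0.89 for Kcnj2, 0.30 for Chrnb1 and 0.26 for the Kcnj11 site, and the lowest for the Scn4a site was -0.50. Atp1b1 ranged from 0.15 to 0.72 and Chrna1 from 1.87 to 5.11. No cause of these moves was tested.

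Replicate numbers gave no ground for pairing: the distances from the group mean correlated by 0.072 between libraries of the same number over 6008 genes. With the replicate block, 0 members were called.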
